A study of Mus musculus with 24 samples.

Results

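The comparison described here set 6 mouse kidney RNA libraries labelled ENPP1 knockout on an adenine diet against 6 labelled wild type on the same diet. The libraries were taken by their titles alone, with no measured value used, and they are 12 of the 24 libraries of the series. All genes entered the comparison. Per the labels, the knockout mice carried floxed Enpp1 alleles (ENPP1 fl/fl) and a CAG-ERCre transgene, a Cre recombinase joined to part of the oestrogen receptor, and received tamoxifen. The CAG promoter is active in most cell types, so the deletion was not aimed at a single cell type. Wild-type mice were CAG-ERCre negative. Both groups ate the adenine diet for 14 days, and 4 chow-fed libraries of the same experiment were used as a reference level. Whether the wild-type and chow mice also received tamoxifen, which Enpp1 alleles they carried, and the sex, age and strain of the mice are not given in the labels. The labels number the libraries as replicates without naming the animals, so p-values measure only the spread between these libraries.

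ENPP1 is a membrane enzyme that cuts extracellular ATP into AMP and pyrophosphate. Pyrophosphate holds back the growth of mineral, AMP feeds adenosine production, and ENPP1 also breaks down cGAMP, the messenger that activates STING. Adenine that escapes salvage is oxidised by xanthine oxidase to a poorly soluble product that crystallises in renal tubules. The cells exposed first are those of the proximal tubule, which reabsorb filtered solutes through sodium-coupled transporters, secrete drugs and urate through organic ion transporters, and run on mitochondrial oxidation.

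Libraries on adenine held 21164187 to 26130107 reads and chow libraries 26340736 to 28350038. Mitochondrially encoded genes took 19.43% to 22.2% of the reads assigned to genes with the knockout label, 16.91% to 26.29% in wild type and 20.67% to 26.68% on chow. In a principal component analysis of the 500 most variable genes over the 12 adenine libraries, the first component held 43% of the variance. Its scores ran from -25.14 to -9.71 with the knockout label and from 8.88 to 23.89 in wild type, so the groups did not overlap. Defining kidney genes such as Umod, Slc12a1 and Aqp2 were present throughout, while the 6 measured adrenal genes summed to 4.877 to 6.414 CPM on adenine.

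Knockout replicates 3 and 5 stood apart in a few genes. Akr1b3, the aldose reductase that makes sorbitol and a gene chosen after its values were seen, lay at 301 and 271 CPM in those libraries and at 105 CPM in replicate 6. In the other 3 knockout libraries it lay at 37.1 to 50.8 CPM, and in wild type at 37.3 to 41.1 CPM. Calls, and counts of gene lists, that changed without replicates 3 and 5 are given with and without them, a setting chosen after the data were seen.

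Enpp1 was read first, as a check of the labels. It lay at 21.5 to 24.7 CPM (median 22.3) in the libraries labelled knockout, at 20.9 to 24.9 CPM (median 21.3) in wild type and at 49.9 to 55.8 CPM on chow. The adenine groups overlapped, with a log2 change of 0.05 ± 0.051 SE, edgeR adjusted p = 0.465. The gene total therefore did not show a loss, and the genotype is given as labelled throughout. Most Enpp1 reads belonged to Enpp1-202, the full protein-coding transcript of 25 exons, at 18.57 to 21.4 CPM (median 19.66) with the knockout label and 17.11 to 19.69 CPM (median 18.08) in wild type. The ranges overlapped, and the difference of 0.12 on the log2 scale gave a two-sided exact permutation p of 0.0195, adjusted 0.0292 over the 3 transcripts tested. It was lost in the deposited TPM (difference 0.03, exact permutation p = 0.714). TPM are scaled to transcript length but, unlike the CPM here, not by the TMM factors of the libraries. Those factors were 1.044 to 1.139 with the knockout label and 1.06 to 1.243 in wild type. Their part in the difference was not tested. The call was also lost when any 1 of knockout replicates 1, 3 and 6 or wild-type replicates 2, 3, 4 and 6 was left out (adjusted exact permutation p 0.052 to 0.0649).

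Enpp1-204, a 3-exon transcript with a retained intron, went the other way. It lay at 2.397 to 2.969 CPM (median 2.577) with the knockout label and 2.94 to 4.798 CPM (median 3.217) in wild type, a log2 difference of -0.365 (two-sided exact permutation p = 0.00433, adjusted 0.013). As a share of Enpp1 reads it made up 11.5% ± 0.718 (SD, n = 6) against 15.5% ± 1.97 (n = 6). The third transcript, Enpp1-201, did not pass (exact permutation p = 0.303). Which exons the floxed alleles flank is not given in the sources used here. A loss of internal exons that leaves the rest of the transcript in place might not be seen in these totals.

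The libraries differed sharply in Esr1, the oestrogen receptor gene, which was looked at after its values were seen because the Cre transgene includes part of such a receptor. Esr1 lay at 22.0 to 31.5 CPM (median 28.5) with the knockout label, 3.39 to 5.54 CPM (median 3.62) in wild type and 7.57 to 11.6 CPM on chow. Every labelled-knockout library was above every other library, and the log2 change against wild type was 2.81 ± 0.12 SE, edgeR adjusted p = 1.06e-10. The added reads sat in particular transcripts. Esr1-208 shares exons 7 to 10 of the 10 exons of Esr1-204, the main transcript, and with them 689 of its 1797 coding bases. It took 238.2 to 368.2 estimated reads (median 333.8) per labelled-knockout library, 4.3 to 10.5 per wild-type library and 2.1 to 9.7 on chow. Esr1-203, a protein-coding transcript, took 219.8 to 315.6 reads (median 243.3) against 0 to 1.4 in wild type and 0 in the 4 chow libraries. Esr1-204 itself overlapped between the adenine groups, at 103.5 to 143 against 66.6 to 121.8 reads. The labels give neither the species nor the exact part of the receptor in the transgene, and from which locus these reads came was not tested. The separation in Esr1 followed the labels in all 12 adenine libraries.

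**Figure D1:**
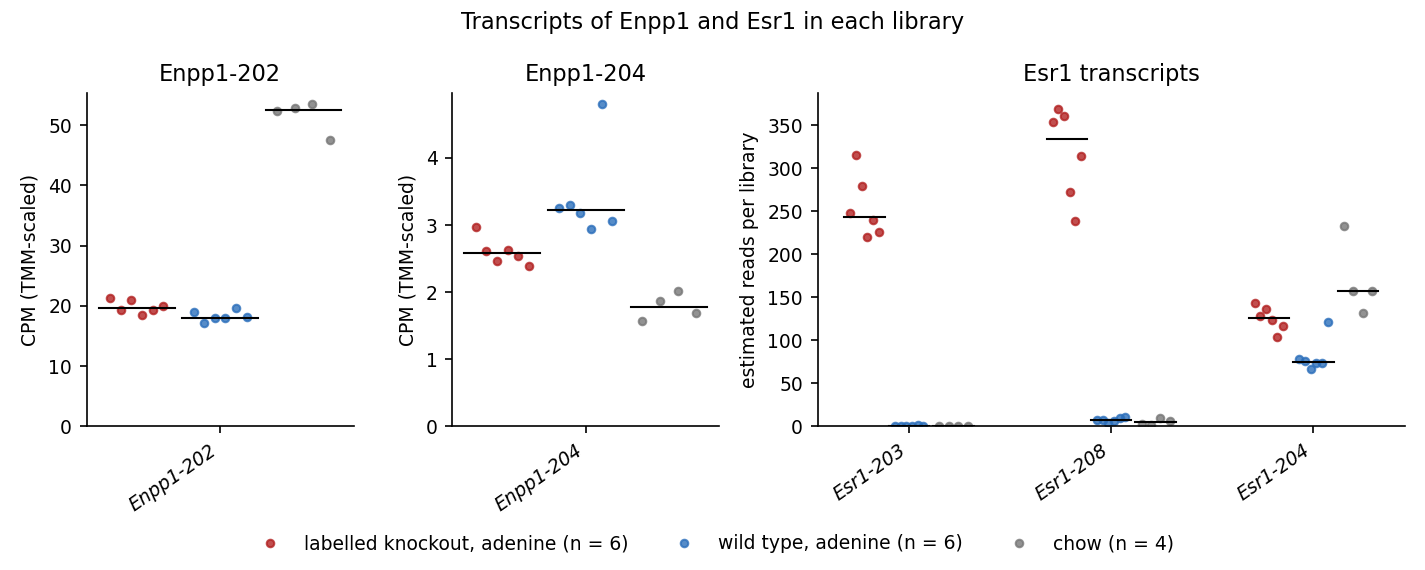
Each point is 1 library and each bar a group median; the left and middle panels show Enpp1-202 and Enpp1-204 in CPM scaled by TMM, and the right panel shows 3 Esr1 transcripts in estimated reads per library. Enpp1-202 overlaps between the adenine groups at about the same level, whereas Esr1-203 and Esr1-208 exceed 200 reads only in the 6 libraries labelled knockout.

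The sequence of 1 coding exon that Esr1-208 shares with the main transcript is given as an example of the sequence the transcripts share; the deposited values are per transcript, so which exons the reads lay in was not tested. It is exon 8 of Esr1-204 on chromosome 10, 134 bases at chr10:4969159-4969292 on the plus strand of GRCm38, from GENCODE M21, shown in lower case with no part marked.
Esr1 exon 8: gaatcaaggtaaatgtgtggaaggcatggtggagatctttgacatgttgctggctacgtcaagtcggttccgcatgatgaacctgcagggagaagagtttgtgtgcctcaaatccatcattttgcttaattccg

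Over all genes, 4260 of 16965 were higher (25.1%) and 3613 lower (21.3%) with the knockout label at an adjusted p under 0.05 in edgeR's quasi-likelihood test, with a median log2 change of -0.02. With upper-quartile scaling the split turned to 3486 higher and 5063 lower, from 54.1% to 40.8% of the calls being higher, so small changes in either direction depend on scaling. Changes of at least 2-fold were mostly upward, with 549 genes higher (3.24%) and 60 lower (0.354%), or 95 lower without knockout replicates 3 and 5. In 2448 genes (14.4%) every labelled-knockout library lay above every wild-type library, and in 1736 (10.2%) below. The counts of gene lists below are to be read against these shares. In bulk kidney, fewer cells of a type and less RNA per cell cannot be told apart. The chow range stands beside many values as a level. Knockout against chow and wild type against chow share the chow libraries and are not independent of each other. TMM factors were 0.7169 to 0.741 on chow, 1.044 to 1.139 with the knockout label and 1.06 to 1.243 in wild type. Levels beside chow therefore depend on this scaling, and no other scaling was read for them.

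**Figure D2:**
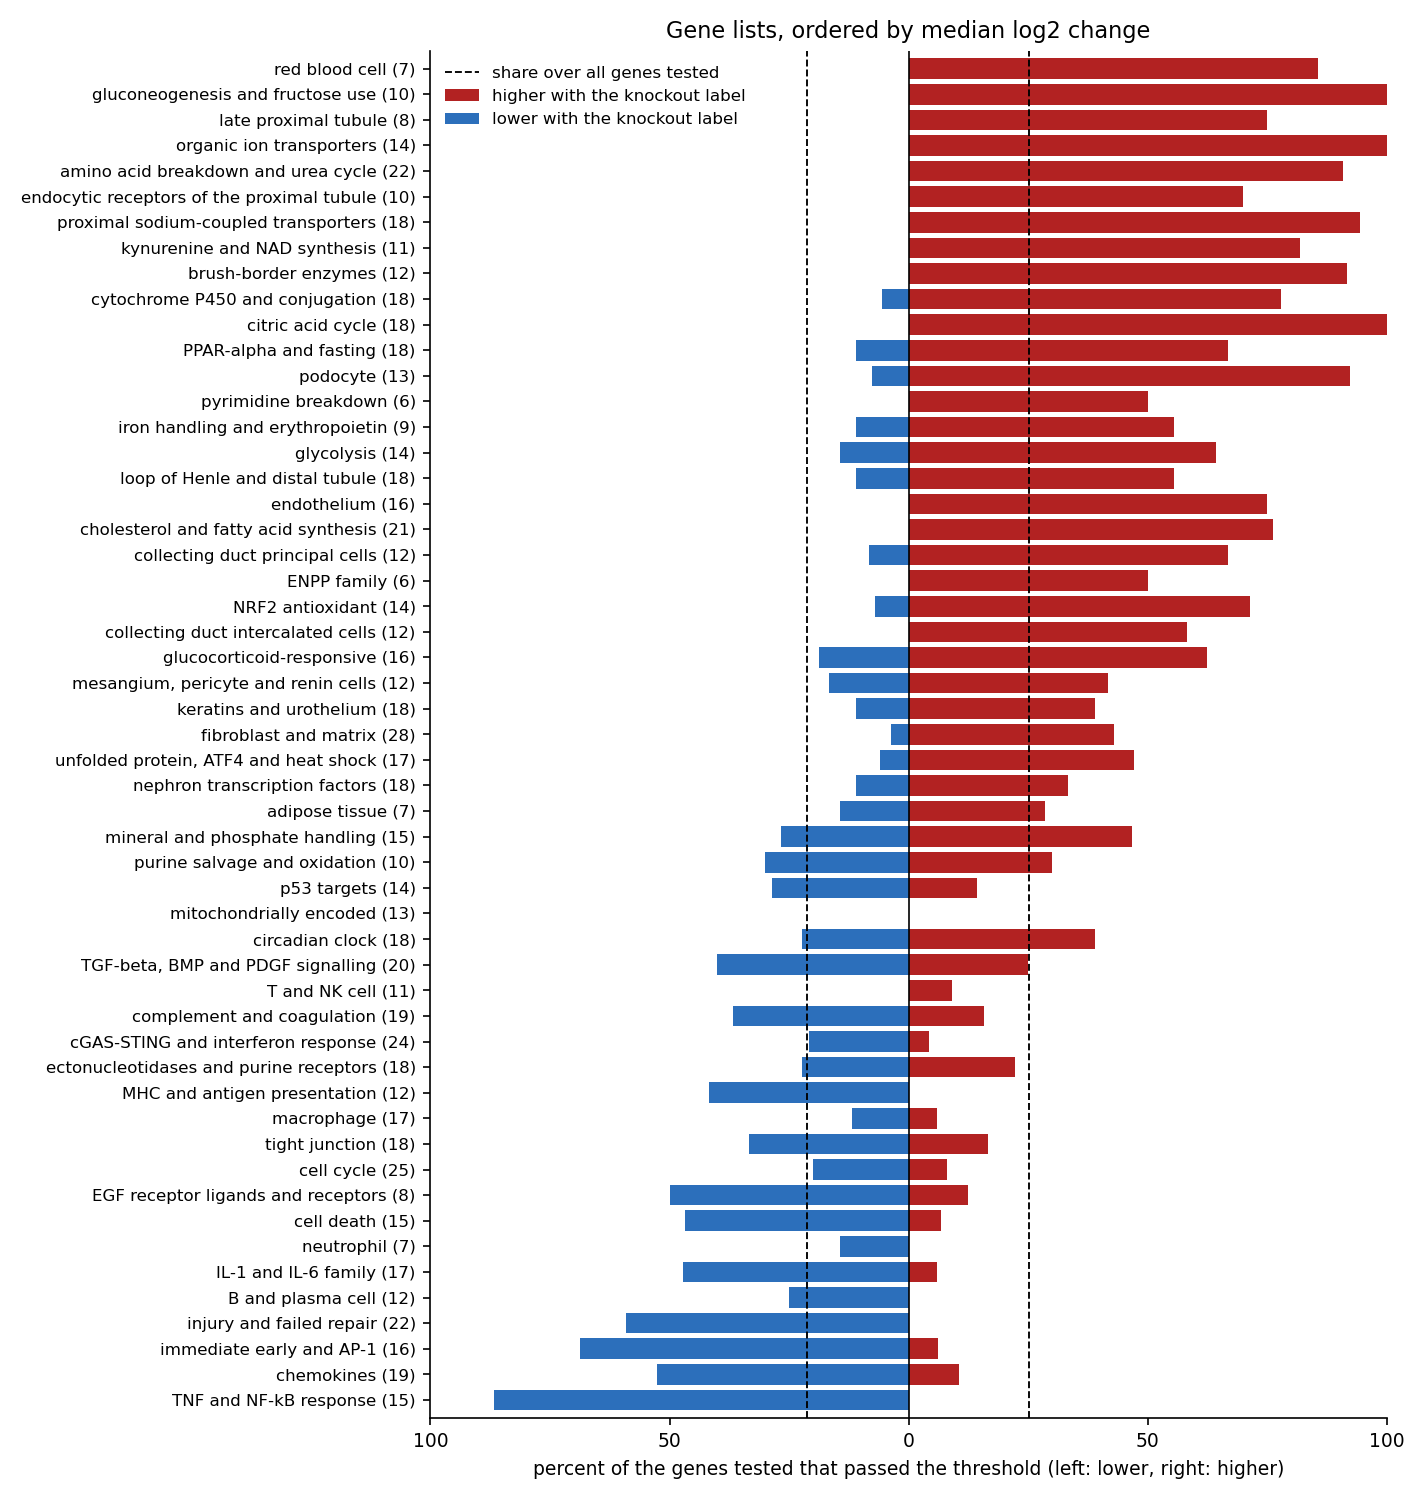
Bars give, for each gene list with at least 6 genes tested (number in brackets), the percent of genes called higher (right) or lower (left) with the knockout label, ordered by median log2 change; dashed lines mark 25.1% higher and 21.3% lower over all genes. The red blood cell list stands at the top, followed by lists of tubular transport and metabolism with few genes lower. Lists of NF-kB, chemokine and early-response genes fill the bottom, and none of the 13 mitochondrially encoded genes passed.

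Among protein-coding genes averaging 5 CPM or more over the adenine libraries, the 12 largest rises were Hpd, Hba-a2, Dnase1, Hbb-bt, Hbb-bs, Hba-a1, Apom, Cyp2d12, Inmt, Fam151a, Mogat2 and Slc22a28. Their log2 changes ran from 2.93 to 4.79, and in all 12 the groups did not overlap. Hpd, which opens the breakdown of tyrosine-derived 4-hydroxyphenylpyruvate, lay at 54.4 to 142 CPM (median 90.97) with the knockout label, 1.24 to 8.10 CPM (median 2.40) in wild type and 205 to 241 CPM on chow, a log2 change of 4.79 ± 0.33 SE, edgeR adjusted p = 1.15e-08. Dnase1, the secreted nuclease that cuts extracellular DNA, lay at 146 to 413 CPM (median 271) against 10.7 to 23.6 CPM (median 14.9), with chow at 1027 to 1092 CPM. Apom, which carries sphingosine-1-phosphate in lipoproteins, lay at 4.28 to 17.5 CPM (median 9.74) against 0.628 to 1.19 CPM (median 0.850). All labelled-knockout libraries stayed below the chow range for Hpd, Dnase1 and Apom, and all wild-type libraries far below it. Inmt, an amine N-methyltransferase, rose by 3.23 and Mogat2, which joins fatty acid to monoacylglycerol, by 3.03 on the log2 scale. Cyp2d12 and the globin genes have close copies among which the authors' quantification may have divided reads, so their levels are uncertain.

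The 12 largest falls were smaller, from -0.90 to -1.53, in Zbtb16, Pdk4, Adgrg2, Rims2, Jchain, Cxcl1, Adam11, Fyb2, 4933427D14Rik, Sox9, Rundc3a and Edn1. In 10 of them all labelled-knockout libraries lay below all wild-type ones; Jchain and 4933427D14Rik overlapped. Edn1, the precursor of the vasoconstrictor endothelin-1, lay at 12.7 to 20.5 CPM (median 16.3) with the knockout label, 24.6 to 36.1 CPM (median 31.5) in wild type and 1.32 to 2.03 CPM on chow (log2 change -0.90 ± 0.1 SE, edgeR adjusted p = 1.70e-06). Sox9, a transcription factor of repairing tubule cells, lay at 17.5 to 21.97 CPM (median 19.01) against 23.3 to 44.2 CPM (median 36.9), with chow at 0.681 to 0.989 CPM. Adam11, a catalytically inactive membrane protein of the ADAM family, lay at 56.9 to 83.8 CPM (median 70.7) against 121 to 190.2 CPM (median 146), with chow at 2.13 to 3.41 CPM. For Edn1, Sox9 and Adam11 the labelled-knockout libraries thus stood between chow and wild type. Zbtb16 and Pdk4 did not, and their values come with the hormone and fuel genes below.

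Genes of uptake from the filtrate were higher with the knockout label. Of 10 endocytic receptor genes of the proximal tubule 7 rose and none fell (median log2 change 0.81), and of 12 brush-border enzymes 11 rose and none fell (0.75). Lrp2, or megalin, the large receptor that retrieves filtered proteins, lay at 345 to 683 CPM (median 488) against 208 to 392 CPM (median 268) in wild type and 1574 to 1705 CPM on chow, a log2 change of 0.84 ± 0.15 SE, edgeR adjusted p = 0.000166. The 2 adenine groups overlapped for Lrp2. They did not for Cubn, its partner cubilin (0.86), for Lrpap1, the chaperone that folds both (1.22), for Folr1, the folate receptor (1.08), or for Fcgrt, which rescues albumin and IgG (0.88). Ggt1, which splits glutathione at the brush border, lay at 262 to 407 CPM (median 329.5) against 122 to 164 CPM (median 147), and Mep1b, a meprin subunit, at 13.7 to 15.9 CPM (median 15.2) against 2.25 to 9.33 CPM (median 3.68). Chow libraries held 168 to 182 CPM of Mep1b, so both adenine groups were far below chow. Mme, or neprilysin, did not pass, at 60.8 to 68.4 CPM (median 66.3) against 59.996 to 65.8 CPM (median 61.6) (log2 change 0.07 ± 0.047 SE, edgeR adjusted p = 0.208).

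Sodium-coupled transporters of the proximal tubule rose in 17 of 18 genes, fell in none, and had a median log2 change of 0.77. Slc34a1, the main phosphate transporter, lay at 2061 to 4173 CPM (median 3245) against 979.9 to 1827 CPM (median 1248), a log2 change of 1.31 ± 0.16 SE, edgeR adjusted p = 2.77e-06. The groups did not overlap, and the labelled-knockout range spanned that of chow (2749 to 3093 CPM). Slc34a3, the second phosphate transporter of this segment, lay at 27.9 to 60.3 CPM (median 45.05) against 6.15 to 15.1 CPM (median 8.77), with chow at 81.4 to 84.04 CPM, and changed by 2.28. Slc5a2, the glucose transporter SGLT2, lay at 289 to 589 CPM (median 465) against 132 to 219 CPM (median 184) (log2 change 1.35). Slc6a19, which takes up neutral amino acids, showed the largest change of the list and lay at 106 to 282 CPM (median 201) against 27.1 to 65.04 CPM (median 37.01) in wild type, beside 258 to 288 CPM on chow (2.29 ± 0.21 SE, edgeR adjusted p = 1.83e-07). Slc13a3, a dicarboxylate transporter, rose by 1.48. For none of Slc34a3, Slc5a2, Slc6a19 and Slc13a3 did the adenine groups overlap.

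Organic ion transporters, which carry drugs, toxins and urate, were higher in all 14 genes tested, with a median log2 change of 1.21 and 10 of them at least doubled. Slc22a8, the anion exchanger OAT3, lay at 315 to 730.0 CPM (median 519) with the knockout label and 74.03 to 200.2 CPM (median 110.4) in wild type, beside 847 to 1068 CPM on chow, a log2 change of 2.13 ± 0.23 SE, edgeR adjusted p = 8.14e-07. Slc22a6, its relative OAT1, lay at 104 to 249.9 CPM (median 160.1) against 32.1 to 61.4 CPM (median 45.1). Slc22a12, the urate transporter URAT1, lay at 163 to 379 CPM (median 262) against 43.3 to 88.2 CPM (median 71.7). The adenine groups did not overlap in these 3 genes, and every labelled-knockout library lay below every chow library. Slc22a18 rose by 1.84 on the log2 scale.

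Genes of the late proximal tubule were less variable among the labelled-knockout libraries than among wild-type ones. Kap, an androgen-regulated protein of that segment, lay at 1714 to 1985 CPM (median 1849) with the knockout label and 179.6 to 591 CPM (median 357) in wild type, beside 14666 to 17192 CPM on chow (2.38 ± 0.24 SE, edgeR adjusted p = 4.10e-07). Slc22a7, the anion transporter OAT2, lay at 35.99 to 44.1 CPM (median 41.7) against 2.33 to 21.2 CPM (median 7.45), and Aadat, which transaminates kynurenine, at 95.7 to 117 CPM (median 104) against 13.4 to 59.2 CPM (median 22.5). Slc22a19, a further organic anion transporter, lay at 25.3 to 31.4 CPM (median 27.99) against 3.71 to 17.3 CPM (median 6.69). In each the groups did not overlap, and the wild-type libraries spread over a wider relative range. Of the 8 genes 6 rose and none fell (median 1.54); Slc7a13, at under 1 CPM in all 12 libraries, did not pass (0.28 ± 0.27 SE, edgeR adjusted p = 0.431). The spread itself was not tested.

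**Figure D3:**
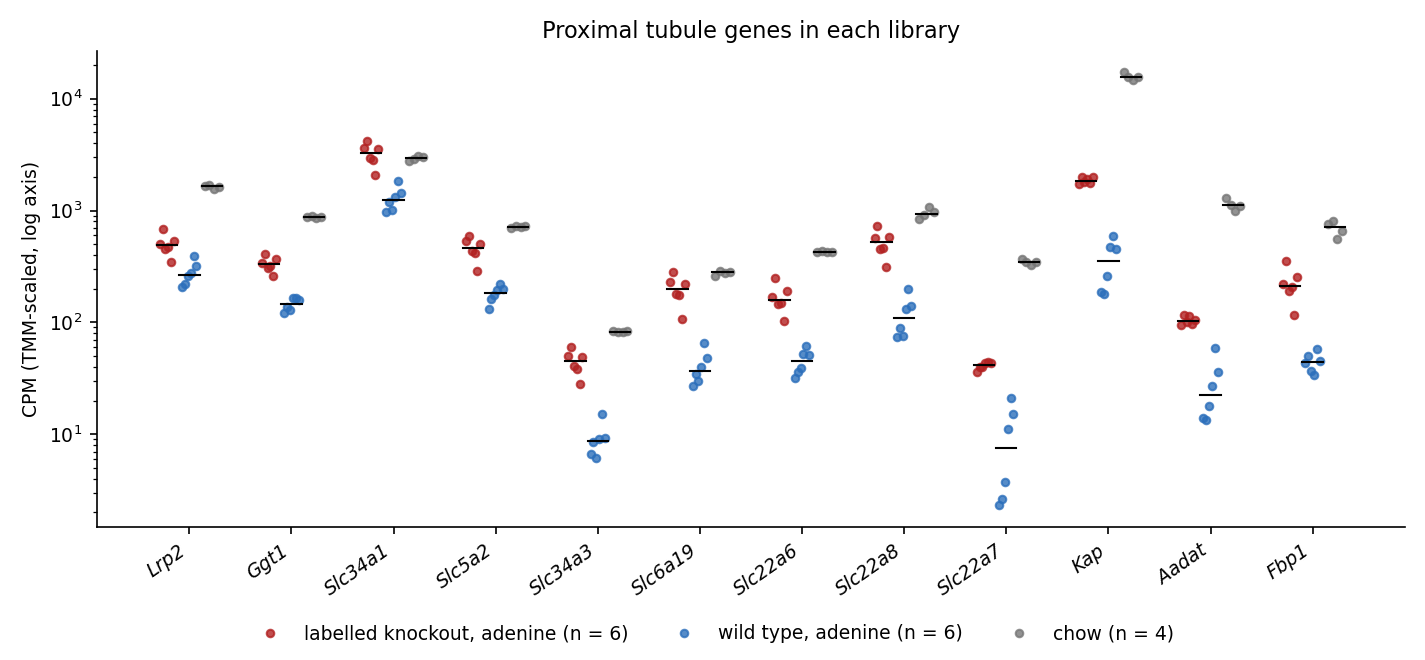
CPM (log axis) of 12 proximal tubule genes, 1 point per library with group medians as bars. In every gene shown except Lrp2 the 6 libraries labelled knockout lie above the 6 wild-type libraries. For Slc34a1 and Slc6a19 their range reaches that of chow, and for Kap and Aadat they lie close together and well below chow.

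The 250 bases before the transcription start are shown for a transporter gene that rose, together with 2 falling inflammatory genes described later, from RefSeq promoters on GRCm38.p6. Capitals mark any of 3 motifs searched on both strands: CAAAGT (a core of sites for HNF4, a nuclear receptor of the proximal tubule), AGAACA (a core for the glucocorticoid receptor) and, added after values were seen, an NF-kB form of GGG and TTTCC with any 2 bases between them. The windows are chr5:90890995-90891244 for Cxcl1 on the plus strand, and chr19:6543071-6543320 for Slc22a12 and chr12:55492648-55492897 for Nfkbia on the minus strand.
Slc22a12: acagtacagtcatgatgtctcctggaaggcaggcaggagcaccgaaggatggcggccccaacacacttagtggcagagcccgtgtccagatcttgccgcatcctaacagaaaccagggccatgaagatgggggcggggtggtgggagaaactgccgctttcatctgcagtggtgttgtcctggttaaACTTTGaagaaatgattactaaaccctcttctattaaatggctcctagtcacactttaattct
Cxcl1: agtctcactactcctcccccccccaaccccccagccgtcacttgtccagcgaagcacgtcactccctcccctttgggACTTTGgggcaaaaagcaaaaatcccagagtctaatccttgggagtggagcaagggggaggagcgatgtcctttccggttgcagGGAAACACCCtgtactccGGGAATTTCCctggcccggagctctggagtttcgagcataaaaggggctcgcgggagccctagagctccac
Nfkbia: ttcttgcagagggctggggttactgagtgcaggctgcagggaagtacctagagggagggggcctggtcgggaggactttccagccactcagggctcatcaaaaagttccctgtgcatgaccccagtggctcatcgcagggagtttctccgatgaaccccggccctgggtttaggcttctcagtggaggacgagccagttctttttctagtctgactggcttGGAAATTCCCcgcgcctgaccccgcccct
The CAAAGT form was found before 5 of the 11 organic ion transporter genes with a window (45.5%), Slc22a12 and Slc22a19 among them, before 3 of 15 proximal sodium-coupled transporter genes, which rose as well, and before 5 of 13 chemokine genes (38.5%), of which more fell than rose. Over all 27025 genes of the promoter table the share was 14.1%. Among the 12 largest rises, 10 had a window, of which 1 held CAAAGT. Among the 12 largest falls 7 had a window, and 3 held CAAAGT (Cxcl1, Edn1 and Pdk4). A match is a description of these letters, not a bound site.

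Breakdown of amino acids was higher in 20 of 22 genes and lower in none (median log2 change 1.05). Ass1, which makes argininosuccinate for arginine synthesis, had a log2 change of 2.88, next to 4.79 for Hpd. Gatm, the first enzyme of creatine synthesis, lay at 108 to 328 CPM (median 196) with the knockout label and 43.9 to 83.4 CPM (median 47.9) in wild type (1.89 ± 0.21 SE, edgeR adjusted p = 1.32e-06), and Sardh, which demethylates sarcosine in mitochondria, at 65.3 to 152 CPM (median 99.6) against 26.8 to 31.4 CPM (median 28.3). Libraries of the 2 adenine groups did not overlap in Ass1, Gatm or Sardh.

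The kynurenine route, which turns tryptophan into NAD, rose in 9 of 11 genes and fell in none (median 0.77). Acmsd, which diverts the route away from NAD, lay at 20.5 to 59.6 CPM (median 36.4) against 5.48 to 10.8 CPM (median 6.93) in wild type and 114 to 127 CPM on chow (2.33 ± 0.21 SE, edgeR adjusted p = 1.31e-07). Haao, the enzyme just before that branch, rose by 1.75, Kmo by 1.48 and Qprt, which commits quinolinate to NAD, by 0.64. Ido2, which opens the tryptophan ring, was low throughout, at 1.51 to 2.65 CPM (median 1.65) against 0.167 to 0.509 CPM (median 0.317). Pyrimidine breakdown split: Dpys (4.64), Upb1 (1.25) and Cda, which deaminates cytidine (1.02), rose, and the other 3 of the 6 genes did not pass. Without knockout replicates 3 and 5 the count was 5 of 6.

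Genes of glucose production and fructose use were higher in all 10 cases tested, 9 of them at least 2-fold, with a median log2 change of 1.65. Fbp1, a committed step of gluconeogenesis, lay at 117 to 355 CPM (median 213) with the knockout label and 33.9 to 57.2 CPM (median 44.2) in wild type, beside 561 to 799.9 CPM on chow (2.33 ± 0.2 SE, edgeR adjusted p = 7.62e-08). Pck1, which makes phosphoenolpyruvate, lay at 976 to 1863 CPM (median 1529.6) against 539.6 to 934 CPM (median 705), and G6pc, which releases free glucose, at 57.6 to 176 CPM (median 109) against 19.6 to 55.2 CPM (median 31.3). Slc2a5, a fructose carrier, rose by 1.93. All 10 genes separated the 12 libraries without overlap. Glycolysis was mixed, with 9 of 14 genes higher and 2 lower (median 0.37). Shared enzymes such as Eno1 (0.71), Pgam1 (0.82) and Pgk1 (0.78) rose, while Hk2, the inducible hexokinase, fell and lay at 12.3 to 19.6 CPM (median 13.999) against 18.1 to 23.6 CPM (median 20.3) (-0.51 ± 0.1 SE, edgeR adjusted p = 0.000666), beside 1.15 to 1.83 CPM on chow. Pfkp, a phosphofructokinase isoform, fell as well (-0.31).

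Nuclear genes of the citric acid cycle were higher in 18 of 18 cases without overlap between the groups, with a median log2 change of 0.66. Suclg1, a subunit of succinyl-CoA ligase, lay at 61.6 to 135 CPM (median 96.9) against 27.2 to 31.9 CPM (median 30.6) in wild type and 328 to 411 CPM on chow (1.70 ± 0.13 SE, edgeR adjusted p = 2.59e-08). Sdhb, of succinate dehydrogenase, rose by 1.13 and Mdh2, a malate dehydrogenase, by 1.05; citrate synthase, Cs, rose least (0.19). Of the 13 mitochondrially encoded genes none passed in either direction in edgeR (median -0.001), whereas 46.4% of all genes did; the count was also 0 at an unadjusted p under 0.05. Their intervals were wide, since wild-type libraries ranged from 49539 to 82276 CPM (median 65699) in mt-Co1, a cytochrome oxidase subunit, against 57677 to 66245 CPM (median 60963) with the knockout label (-0.07 ± 0.12 SE, edgeR adjusted p = 0.645). The difference between the 2 lists was not tested.

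**Figure D4:**
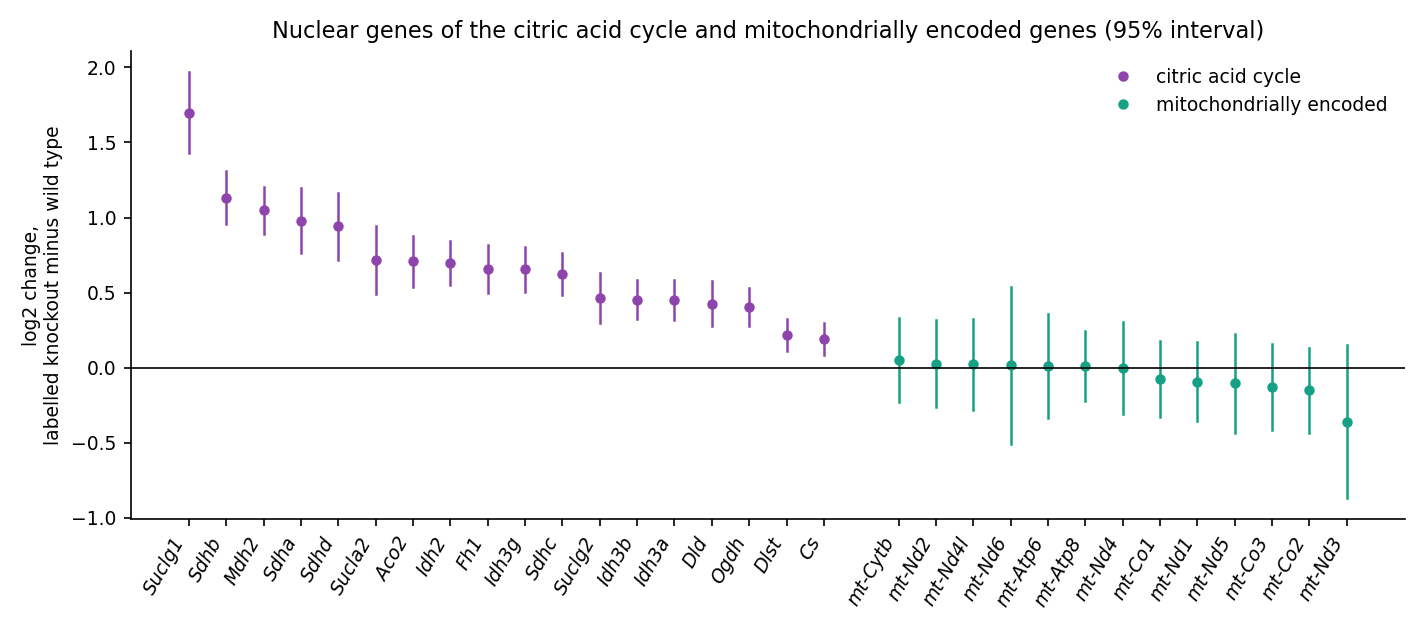
Log2 change (labelled knockout minus wild type) with its 95% interval for the 18 nuclear citric acid cycle genes and the 13 mitochondrially encoded genes tested. All intervals of the first set lie above 0, from Cs to Suclg1, and all intervals of the second include 0.

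Fatty acid oxidation genes driven by PPAR-alpha in fasting rose in 12 of 18 cases and fell in 2 (median 0.62). Ehhadh, of peroxisomal oxidation, lay at 53.3 to 140.5 CPM (median 89.5) against 21.5 to 33.2 CPM (median 27.6), and Cyp4a14, an omega-hydroxylase with close relatives among which reads may be divided, at 61.998 to 216 CPM (median 118) against 16.999 to 55.7 CPM (median 25.02). Pdk4, the kinase that shuts pyruvate dehydrogenase in fasting, went the other way, at 8.54 to 11.8 CPM (median 9.67) with the knockout label, 21.4 to 30.1 CPM (median 24.7) in wild type and 21.2 to 26.6 CPM on chow (-1.35 ± 0.085 SE, edgeR adjusted p = 7.73e-09). Angptl4, a secreted inhibitor of lipoprotein lipase, also fell, at 13.8 to 33.8 CPM (median 25.02) against 35.3 to 53.8 CPM (median 42.8), with chow at 63.3 to 67.1 CPM. For both, wild-type values were nearer to chow than labelled-knockout values were.

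Drug-metabolising enzymes rose in 14 of 18 genes and fell in 1 (median 0.73). Gsta4, which conjugates lipid aldehydes to glutathione, lay at 53.2 to 115 CPM (median 82.2) against 17.4 to 26.3 CPM (median 22.5) (1.91 ± 0.14 SE, edgeR adjusted p = 2.35e-08), and Cyp4b1 rose by 1.42. Ces1d and Cyp2d26 had log2 changes of 2.77 and 2.16 and belong to families of similar genes, so their levels are uncertain. Antioxidant genes under NRF2 rose in 10 of 14 cases and fell in 1 (median 0.27). Nqo1, a quinone reductase, lay at 17.9 to 29.9 CPM (median 24.5) against 9.55 to 10.6 CPM (median 10.1) (1.23 ± 0.091 SE, edgeR adjusted p = 1.88e-08), below 65.4 to 72.2 CPM on chow, and Cat, catalase, rose by 1.00. Hmox1, heme oxygenase, did not pass, at 14.4 to 19.1 CPM (median 17.6) against 18.3 to 21.5 CPM (median 18.5) (-0.14 ± 0.065 SE, edgeR adjusted p = 0.0926). It fell past the threshold with upper-quartile scaling (edgeR adjusted p = 0.0215), without knockout replicate 5 (0.043) and without knockout replicates 3 and 5 (0.0311).

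Lipid synthesis rose in 16 of 21 genes, fell in none, and by small amounts (median 0.31). Scd1, which desaturates fatty acids, lay at 48.6 to 61.2 CPM (median 54.6) against 15.2 to 29.9 CPM (median 22.9), far under the 618 to 792 CPM of chow (1.29 ± 0.14 SE, edgeR adjusted p = 9.98e-07). Cyp51, of cholesterol synthesis, lay at 42.4 to 49.6 CPM (median 45.2) against 22.7 to 26.3 CPM (median 25.2), and Insig1, which restrains that pathway, at 17.1 to 31.5 CPM (median 26.002) against 10.99 to 15.3 CPM (median 13.5). These 3 genes did not overlap between the groups.

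Distal segments moved less evenly. Of 18 genes expressed in the thick ascending limb and beyond it, up to the connecting tubule, 10 rose and 2 fell (median 0.31). Egf, the growth factor precursor of the distal tubule, lay at 249 to 403 CPM (median 318) against 57.2 to 149 CPM (median 92.8) in wild type and 1036 to 1227 CPM on chow (1.76 ± 0.17 SE, edgeR adjusted p = 3.39e-07). Klk1, tissue kallikrein, rose by 1.13 and Pvalb, a calcium buffer of the distal convoluted tubule, by 1.78. Umod, the main urinary protein, did not pass, at 875 to 1308 CPM (median 1169) against 730.4 to 1175 CPM (median 934) (0.28 ± 0.14 SE, edgeR adjusted p = 0.11), but did without wild-type replicate 1 (edgeR adjusted p = 0.0443). Trpv5 and Trpm6, the apical calcium and magnesium channels, were the 2 that fell (-0.31 and -0.20). Slc12a3, the thiazide-sensitive cotransporter, singled out after its values were seen, exceeded both references: 1345 to 2211 CPM (median 1706) with the knockout label, 1018 to 1264 in wild type and 445 to 642 on chow.

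In principal cells of the collecting duct 8 of 12 genes rose and 1 fell (median 0.29), and 5 rose without knockout replicates 3 and 5. Aqp3, a basolateral water channel, lay at 41.5 to 81.6 CPM (median 61.9) against 28.4 to 39.3 CPM (median 31.2) (0.93 ± 0.13 SE, edgeR adjusted p = 1.45e-05). Aqp2, its apical counterpart, lay at 138 to 313 CPM (median 160.4) against 88.8 to 148 CPM (median 105), with overlap. Aqp4 changed most, by 3.16 ± 0.82 SE, edgeR adjusted p = 0.00394, and without those 2 libraries by 1.83 (edgeR adjusted p = 0.063). Its levels were low and overlapped, at 0.848 to 12.9 CPM with the knockout label and 0.0363 to 2.44 CPM in wild type. Intercalated cells, which secrete acid or base, rose in 7 of 12 genes and fell in none (0.26): Slc4a1, the anion exchanger they share with red cells, rose by 1.11 and Slc26a4, or pendrin, by 0.78. Of 18 keratin and urothelial genes 7 rose and 2, Krt20 and Krt18, fell (median 0.21). Among those that rose, Psca, Krt15 and Upk3a were few-read and rested partly on the same libraries. Psca lay at 0.700 to 21.3 CPM (median 4.68) against 0.670 to 1.37 CPM (median 1.01). Krt15 and Upk3a rose by 1.99 and 1.98 from medians under 1 CPM. Without knockout replicates 3 and 5 the log2 changes were 1.63 for Psca, 1.85 for Krt15 and 1.56 for Upk3a, and all 3 still passed (edgeR adjusted p 0.00587 to 0.0485). Knockout replicate 6, at 5.75 CPM of Psca, stayed in that setting. Knockout replicate 2 lay within the wild-type range of Psca, at 0.700 CPM.

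Transcription factors of the nephron changed little, with 6 of 18 higher and 2 lower (median 0.14), and 10 higher without knockout replicates 3 and 5. Hnf4a lay at 168 to 289 CPM (median 222) against 141 to 183 CPM (median 162), with chow at 579.5 to 618 CPM and with overlap (0.48 ± 0.095 SE, edgeR adjusted p = 0.000444). Pax8, a factor of kidney development, had a log2 change of -0.28 and fell. Tight junction genes fell in 6 of 18 cases and rose in 3 (median -0.13). Cldn10, of paracellular ion transport, rose and lay at 39.4 to 56.9 CPM (median 48.1) against 25.3 to 32.3 CPM (median 28.9), and Cldn3 fell (-0.36).

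The glomerulus was also higher in RNA. Of 13 podocyte genes 12 rose and 1 fell (median 0.62). Nphs1, or nephrin, of the slit diaphragm, lay at 29.1 to 47.3 CPM (median 40.1) with the knockout label, 18.97 to 24.5 CPM (median 23.1) in wild type and 31.3 to 37.3 CPM on chow (0.75 ± 0.1 SE, edgeR adjusted p = 1.01e-05). Podxl, the sialoprotein of the foot processes, rose by 1.30. The 1 call downward, Plce1 (-0.23 ± 0.094 SE, edgeR adjusted p = 0.0488), was lost in most of the other settings. Endothelial genes rose in 12 of 16 cases and fell in none (0.31). Plvap, of fenestral diaphragms, lay at 55.7 to 103 CPM (median 70.7) against 27.8 to 42.3 CPM (median 30.9), and Kdr, the VEGF receptor, at 14.6 to 22.9 CPM (median 20.3) against 6.32 to 11.9 CPM (median 9.15), with chow at 47.4 to 56.5 CPM. Pecam1 sat at the threshold (0.23 ± 0.091 SE, edgeR adjusted p = 0.0499) and without knockout replicates 3 and 5 its adjusted p was 0.179.

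Among genes of mesangium, pericytes and renin cells 5 of 12 rose and 2 fell (median 0.22). Ren1, renin, lay at 13.4 to 85.8 CPM (median 42.9) with the knockout label, 8.42 to 11.3 CPM (median 10.4) in wild type and 84.7 to 115 CPM on chow (2.09 ± 0.33 SE, edgeR adjusted p = 4.79e-05); the labelled-knockout libraries spread widely, and all were above wild type. Itga8, a mesangial integrin, lay at 6.78 to 9.24 CPM (median 8.67) against 2.30 to 4.02 CPM (median 3.53). Cspg4, or NG2, of pericytes, fell (-0.40), as did Notch3 (-0.26).

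Red blood cell genes rose in 6 of 7 cases (median 3.88). Alas2, the first heme enzyme of erythroid cells and a gene without a close copy, lay at 1.72 to 4.35 CPM (median 3.37) with the knockout label, 0 to 0.331 CPM (median 0.217) in wild type and 8.65 to 11.7 CPM on chow. Globin genes took 0.0231% to 0.0509% of reads with the knockout label, 0.0015% to 0.0039% in wild type and 0.0762% to 0.0951% on chow. How much blood remained in the organs is not given in the sources used here, and its part in the results of blood and endothelium was not tested. Iron genes rose in 5 of 9 cases and fell in 1 (0.39). Ftl1, ferritin light chain, lay at 1379.9 to 2175 CPM (median 1734) against 859 to 939 CPM (median 894), and Fth1, its heavy chain, at 1368 to 2049.7 CPM (median 1708) against 853 to 1054 CPM (median 959). Ireb2, which represses ferritin translation, fell (-0.19).

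Genes of tubular injury were lower or did not pass. Of 22 genes 13 fell and none rose (median -0.32). Vcam1, an adhesion molecule of tubule cells that fail to repair, lay at 128 to 202 CPM (median 166) against 190.4 to 326 CPM (median 247) in wild type and 12.6 to 14.9 CPM on chow (-0.58 ± 0.11 SE, edgeR adjusted p = 0.000352). Krt20, a keratin of injured tubules, lay at 18.1 to 35.03 CPM (median 24.3) against 25.4 to 53.5 CPM (median 38.4), and Gdf15, a stress-induced hormone, at 22.96 to 35.7 CPM (median 27.9) against 27.6 to 55.4 CPM (median 43.1). These ranges overlapped. Havcr1, or KIM-1, the standard injury marker, did not pass and had a log2 change of 0.01 ± 0.14 SE, edgeR adjusted p = 0.953, whose sign turned with upper-quartile scaling and when any of 5 single libraries was left out; it lay at 171 to 262 CPM (median 209) against 155 to 300.0 CPM (median 205). Lcn2 did not pass either, at 215 to 337 CPM (median 258) against 253 to 325 CPM (median 276) (-0.15 ± 0.095 SE, edgeR adjusted p = 0.203), and fell past the threshold without knockout replicate 5 alone or with replicate 3 (edgeR adjusted p = 0.0163 either way).

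Ligands and receptors of the EGF family were called lower in 4 of 8 genes and higher in 1 (median -0.14). Nrg1, neuregulin, lay at 23.9 to 29.9 CPM (median 26.4) against 32.8 to 56.4 CPM (median 42.4), and Hbegf at 21.6 to 27.8 CPM (median 24.3) against 28.1 to 36.9 CPM (median 30.5), both without overlap; Areg, Ereg and Epgn had too few reads to test. Cell-cycle genes mostly did not pass, with 5 of 25 lower and 2 higher (-0.13): Mki67, a proliferation marker, lay at 40.7 to 47.4 CPM (median 43.9) against 42.8 to 57.6 CPM (median 52.7), beside 2.08 to 2.83 CPM on chow (-0.19 ± 0.069 SE, edgeR adjusted p = 0.0281). The Mki67 call was lost without any 1 of knockout replicates 2 and 3 or wild-type replicates 3, 4 and 6 (edgeR adjusted p 0.0558 to 0.0859), and the count of cell-cycle genes lower was 2 or 3 without knockout replicate 2 or 3 or wild-type replicate 3 or 4. Of 14 p53 targets 2 rose and 4 fell. Cdkn1a, or p21, did not pass (-0.02 ± 0.093 SE, edgeR adjusted p = 0.899), Ccng1 rose by 0.57, and Pmaip1, or NOXA, which promotes apoptosis, fell (-0.62).

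Immediate early and AP-1 genes fell in 11 of 16 cases and rose in 1 (median -0.36). Fos lay at 8.62 to 10.8 CPM (median 9.17) with the knockout label, 14.1 to 15.9 CPM (median 15.2) in wild type and 5.37 to 7.18 CPM on chow (-0.69 ± 0.069 SE, edgeR adjusted p = 3.88e-07). Atf3, a stress-induced factor, lay at 7.003 to 12.7 CPM (median 8.27) against 13.2 to 20.1 CPM (median 15.6), and Myc at 22.9 to 28.04 CPM (median 27.1) against 35.9 to 58.1 CPM (median 45.3); all 3 were without overlap. Jun did not pass (-0.02 ± 0.054 SE, edgeR adjusted p = 0.784). Zfp36, which destabilises cytokine messages, was the 1 that rose, at 63.1 to 97.7 CPM (median 78.2) against 48.2 to 61.8 CPM (median 56.6). Dusp1, a phosphatase that switches off MAP kinases, was counted in the glucocorticoid-responsive list below and not in this one. It rose too, at 54.1 to 85.6 CPM (median 76.5) against 33.5 to 43.0 CPM (median 37.95) (0.96 ± 0.096 SE, edgeR adjusted p = 3.86e-07). Cell death genes fell in 7 of 15 cases and rose in 1 (-0.17): Casp4, the inflammatory caspase, lay at 19.7 to 25.6 CPM (median 22.3) against 32.3 to 39.4 CPM (median 34.2), Gsdmd, the pore former it cuts, at 11.98 to 19.995 CPM (median 14.96) against 21.03 to 23.6 CPM (median 22.5), and Gpx4, which guards lipids against peroxidation, was the 1 that rose (0.55), a call lost with a transcript length offset (edgeR adjusted p = 0.216). Of 17 stress genes of the unfolded protein response, ATF4 and heat shock 8 rose and 1 fell; Hspa1b (0.80 ± 0.26 SE, edgeR adjusted p = 0.0159) had a log2 change of 0.49 without knockout replicate 3 (edgeR adjusted p = 0.0551) and of 0.20 without replicates 3 and 5 (edgeR adjusted p = 0.265).

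Targets of TNF and NF-kB were lower in 13 of 15 genes and higher in none (median log2 change -0.52). Nfkbia, the inhibitor that NF-kB itself induces, lay at 110.1 to 126 CPM (median 119) with the knockout label, 147 to 165 CPM (median 158) in wild type and 109 to 125 CPM on chow (-0.42 ± 0.046 SE, edgeR adjusted p = 9.64e-07). Under TMM scaling the labelled-knockout libraries were thus at the chow level. Tnfaip3, or A20, a brake on the pathway, lay at 12.3 to 24.02 CPM (median 17.6) against 24.4 to 36.8 CPM (median 30.5), with chow at 3.04 to 3.71 CPM. Nfkbiz lay at 138 to 183 CPM (median 160.5) against 244 to 325 CPM (median 274), and Birc3, an inhibitor of cell death, at 66.2 to 92.98 CPM (median 81.1) against 109 to 154 CPM (median 129). None of these 4 overlapped. Tnf itself was low, at 2.04 to 4.32 CPM (median 3.35) against 4.31 to 5.82 CPM (median 4.96). The NF-kB form marked in the Cxcl1 and Nfkbia promoters was found before 5 of the 12 genes of the list with a window (41.7%) and before 1.7% of all genes of the table; the list was made of known targets, so this share describes the list and not these data.

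Chemokines fell in 10 of 19 genes and rose in 2 (median -0.42). Cxcl1 and Cxcl2, which draw neutrophils, changed by -1.14 and -0.87; Cxcl2 lay at 6.03 to 14.03 CPM (median 9.12) against 14.98 to 21.1 CPM (median 17.04). Ccl28, an epithelial chemokine, lay at 9.85 to 13.8 CPM (median 11.7) against 19.6 to 24.01 CPM (median 20.7), beside 8.82 to 10.8 CPM on chow (-0.86 ± 0.08 SE, edgeR adjusted p = 1.87e-07). Ccl2, which draws monocytes, lay at 4.62 to 10.2 CPM (median 7.98) against 7.65 to 11.9 CPM (median 11.6), with overlap. Cxcl12, made by stroma, rose, at 45.95 to 66.05 CPM (median 59.8) against 17.2 to 31.7 CPM (median 23.8) in wild type, beside 168 to 237 CPM on chow (1.25 ± 0.13 SE, edgeR adjusted p = 3.89e-07).

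In the IL-1 and IL-6 family 8 of 17 genes fell and 1 rose (median -0.22). Lif lay at 15.7 to 25.1 CPM (median 20.8) with the knockout label, 32.4 to 46.2 CPM (median 38.7) in wild type and 0.297 to 0.576 CPM on chow (-0.89 ± 0.11 SE, edgeR adjusted p = 2.27e-06), and Osmr, the oncostatin M receptor, at 38.3 to 60.7 CPM (median 46.6) against 66.4 to 78.9 CPM (median 69.7). Il1b (-0.08 ± 0.18 SE, edgeR adjusted p = 0.743) and Il6 (0.35 ± 0.32 SE, edgeR adjusted p = 0.398) did not pass. The 1 that rose, Il33 (0.29), had an edgeR adjusted p of 0.112 without knockout replicates 3 and 5. Complement and clotting genes fell in 7 of 19 cases and rose in 3 (-0.07). C3, the central complement protein, lay at 337 to 593 CPM (median 484) against 637 to 845 CPM (median 732), beside 15.3 to 19.1 CPM on chow (-0.65 ± 0.11 SE, edgeR adjusted p = 0.000156). F3, tissue factor, lay at 27.6 to 32.8 CPM (median 29.5) against 43.1 to 50.5 CPM (median 48.9). Cd55, or decay-accelerating factor, an inhibitor of complement, was among the 3 that rose (1.13).

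**Figure D5:**
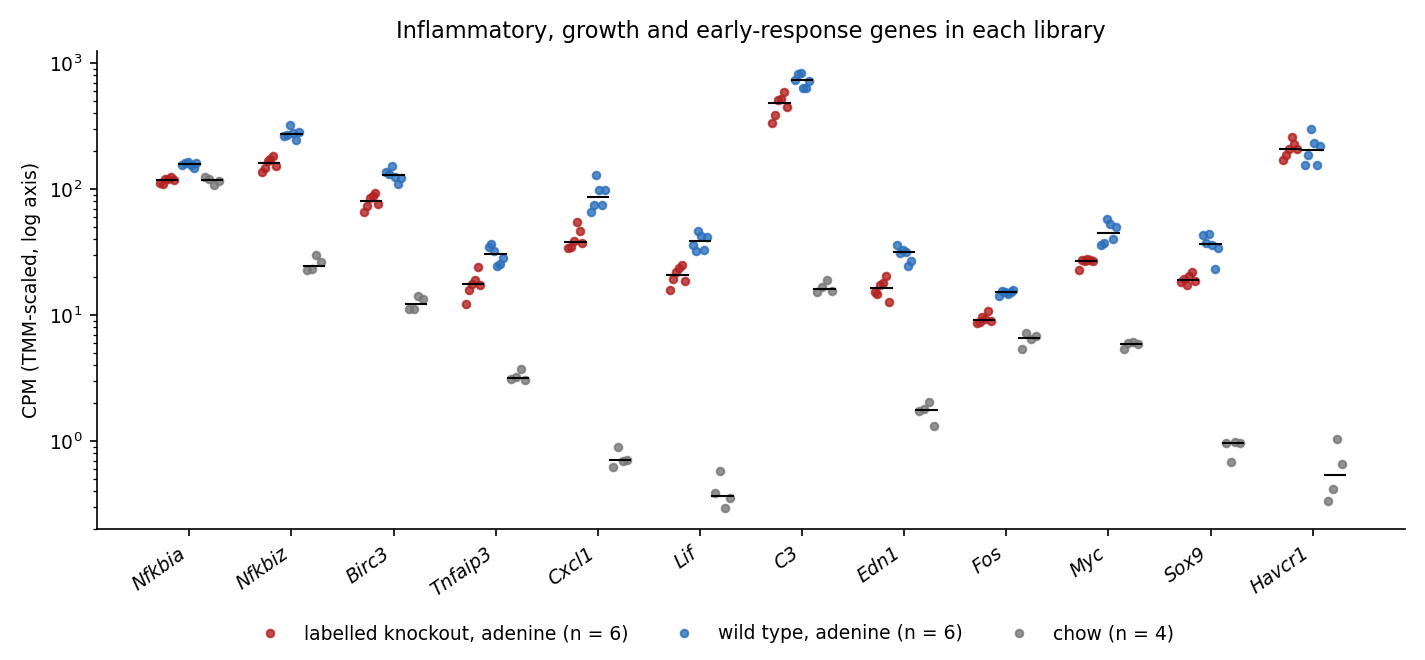
CPM (log axis) of 12 inflammatory, growth and early-response genes, 1 point per library with group medians as bars. The 6 labelled-knockout libraries lie below the 6 wild-type libraries in every gene but Havcr1, where the groups overlap, and in all but Nfkbia they stay above chow.

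Few immune cell markers passed beside these mediators. Of 17 macrophage genes 2 fell and 1 rose (median -0.12); 4 fell without knockout replicate 5, 5 without wild-type replicate 5, and 1 without knockout replicate 1, 2, 3, 4 or 6 or wild-type replicate 1 or 4. Over all 17, their summed level was 519.1 to 672.9 CPM with the knockout label and 476.1 to 695.9 in wild type. Adgre1, or F4/80, did not pass (-0.27 ± 0.14 SE, edgeR adjusted p = 0.113), but did without wild-type replicate 5 (edgeR adjusted p = 0.0186) and with upper-quartile scaling (0.048), while Cd68 fell (-0.40 ± 0.08 SE, edgeR adjusted p = 0.000558). Neutrophil genes fell in 1 of 7 cases, or 2 without knockout replicates 3 and 5, and S100a8 lay at 2.51 to 6.88 CPM (median 5.13) against 4.39 to 9.87 CPM (median 5.14). Among T and NK cell genes 1 of 11 passed, upward, and none without knockout replicates 3 and 5; Cd3e lay at 0.979 to 1.40 CPM (median 1.31) against 0.945 to 1.34 CPM (median 1.12). Of 12 B and plasma cell genes 3 fell, all of antibody-secreting cells: Jchain, which joins IgA and IgM (-1.19), Igha (-1.12) and Mzb1 (-0.64). Jchain lay at 4.62 to 9.70 CPM (median 6.90) against 7.45 to 27.01 CPM (median 14.5), an overlap. Antigen presentation genes fell in 5 of 12 cases and rose in none, among them the regulators Nlrc5 (-0.46) and Ciita (-0.41), while the class II genes H2-Aa and Cd74 did not pass (-0.05 and -0.01).

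ENPP1 degrades cGAMP, so genes of the cGAS-STING route and its interferon response were read as a list. Of 24 genes 1 rose and 5 fell (4.2% and 20.8%, against 25.1% and 21.3% of all genes), with a median of -0.09. Cgas, the DNA sensor, lay at 3.995 to 5.45 CPM (median 4.67) against 5.33 to 7.12 CPM (median 5.71) (-0.34 ± 0.11 SE, edgeR adjusted p = 0.0212), and Tmem173, which encodes STING, at 14.01 to 21.6 CPM (median 17.1) against 16.2 to 21.8 CPM (median 18.8) (-0.12 ± 0.092 SE, edgeR adjusted p = 0.323). The Cgas call was lost without knockout replicate 1 (edgeR adjusted p = 0.051) or wild-type replicate 4 (0.0572), and Tmem173 passed without knockout replicates 3 and 5 (-0.24, edgeR adjusted p = 0.0371). Tbk1, the kinase downstream, fell (-0.30), as did Irf9 (-0.25) and Ddx58, the RNA sensor RIG-I (-0.45). Rsad2, or viperin, was the 1 that rose, at 25.9 to 33.4 CPM (median 30.6) against 19.1 to 28.1 CPM (median 21.7), and chow libraries held 54.2 to 65.1 CPM.

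Single enzymes around ATP and adenosine moved in both directions. In the ENPP family itself 3 of 6 genes rose and none fell: Enpp6, a choline phosphodiesterase, lay at 26.9 to 56.2 CPM (median 41.2) against 17.7 to 24.1 CPM (median 19.5), Enpp2, or autotaxin, at 61.6 to 119 CPM (median 88.2) against 41.7 to 52.5 CPM (median 47.4), and Enpp5 at 56.9 to 73.6 CPM (median 63.2) against 40.9 to 55.7 CPM (median 48.1). In all 3 the adenine groups did not overlap and chow was higher. Of 18 ectonucleotidase and purine receptor genes 4 rose and 4 fell (median -0.09). These shares, 22.2% each, were near the 25.1% higher and 21.3% lower of all genes. Entpd2, which hydrolyses ATP outside cells, lay at 11.6 to 16.2 CPM (median 13.7) against 18.7 to 22.6 CPM (median 19.9) (-0.56 ± 0.071 SE, edgeR adjusted p = 4.50e-06), and Nt5e, or CD73, which makes adenosine from AMP, at 29.3 to 36.7 CPM (median 32.4) against 33.2 to 54.3 CPM (median 41.98). Alpl, the phosphatase that destroys pyrophosphate, lay at 209.8 to 391 CPM (median 311) against 152 to 234 CPM (median 204) (0.62 ± 0.12 SE, edgeR adjusted p = 0.000281). Adenine is salvaged by Aprt and oxidised by Xdh. Aprt lay at 53.9 to 63.1 CPM (median 59.2) against 50.9 to 55.8 CPM (median 52.96) (0.13 ± 0.047 SE, edgeR adjusted p = 0.0256), a call lost without knockout replicate 2, 4 or 6 or wild-type replicate 5 (edgeR adjusted p 0.0563 to 0.0681), with upper-quartile scaling (0.07, adjusted p = 0.183) and with a transcript length offset (0.04, adjusted p = 0.522), and Xdh at 81.9 to 90.3 CPM (median 88.4) against 104 to 119 CPM (median 109), with chow at 46.4 to 57.96 CPM (-0.33 ± 0.048 SE, edgeR adjusted p = 2.14e-05). Adk, which phosphorylates adenosine, rose by 1.17.

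Genes of mineral balance rose in 7 of 15 cases and fell in 4 (median 0.04). Abcc6, the transporter whose activity leads to extracellular pyrophosphate, lay at 19.3 to 30.7 CPM (median 27.7) with the knockout label, 9.92 to 14.1 CPM (median 11.9) in wild type and 10.1 to 11.8 CPM on chow (1.12 ± 0.1 SE, edgeR adjusted p = 1.71e-07), so every labelled-knockout library was above the chow range, which wild type overlapped. Ank, which exports ATP and thereby also feeds pyrophosphate, lay at 6.26 to 8.66 CPM (median 7.90) against 4.69 to 6.58 CPM (median 5.45). Mgp, an inhibitor of calcification, lay at 209.9 to 277 CPM (median 248) against 145 to 193 CPM (median 167), and at 106 to 121 CPM on chow. Spp1, osteopontin, was among the most abundant messages, at 11711 to 16043 CPM (median 13360.0) against 13040.0 to 20486 CPM (median 16988), and fell (-0.33 ± 0.1 SE, edgeR adjusted p = 0.013). Slc20a1, a phosphate carrier of most cells, lay at 112 to 138 CPM (median 119) against 139 to 232 CPM (median 180.3). Kl, the co-receptor of the phosphate hormone FGF23, rose by 0.87. Vitamin D enzymes split, with Cyp27b1, which activates it, lower (-0.47) and Cyp24a1, which inactivates it, higher (0.39); the second call was lost without knockout replicate 1 (edgeR adjusted p = 0.0523) or 2 (0.0545).

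Matrix genes rose in 12 of 28 cases and fell in 1 (median 0.18). Col14a1 lay at 19.1 to 25.6 CPM (median 23.8) against 7.43 to 12.8 CPM (median 9.05), with chow at 40.4 to 51.4 CPM (1.27 ± 0.11 SE, edgeR adjusted p = 6.10e-08). Col6a3 lay at 40.6 to 52.4 CPM (median 46.01) against 21.03 to 30.1 CPM (median 23.7), with chow at 21.6 to 24.5 CPM, and here too wild type overlapped chow while the knockout label did not. Col1a1, the main fibrillar collagen, did not pass, at 121 to 192 CPM (median 161) against 107 to 162 CPM (median 149) (0.15 ± 0.1 SE, edgeR adjusted p = 0.247), nor did Acta2 of myofibroblasts (0.03 ± 0.084 SE, edgeR adjusted p = 0.767). Mmp7, a protease of injured tubules, was the 1 that fell, at 10.7 to 19.4 CPM (median 14.1) against 18.2 to 27.9 CPM (median 20.8). Growth factors of the TGF-beta, BMP and PDGF families fell in 8 of 20 cases and rose in 5 (-0.06), or in 3 with upper-quartile scaling and likewise without knockout replicates 3 and 5. Pdgfb lay at 65.5 to 95.9 CPM (median 79.8) against 115 to 165 CPM (median 136), and Tgfb2 fell (-0.37), while Tgfb1 did not pass (-0.04 ± 0.068 SE, edgeR adjusted p = 0.669). Bmp7, which counters TGF-beta in the tubule, lay at 23.8 to 29.04 CPM (median 26.6) against 17.8 to 19.96 CPM (median 18.6).

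Genes that respond to glucocorticoids split, with 10 of 16 higher and 3 lower (median 0.25). Zbtb16, a strongly induced target, lay at 2.49 to 3.76 CPM (median 3.31) with the knockout label, 6.42 to 12.3 CPM (median 9.11) in wild type and 15.5 to 17.99 CPM on chow (-1.53 ± 0.15 SE, edgeR adjusted p = 3.87e-07), and Fkbp5, a chaperone of the receptor, at 23.1 to 28.9 CPM (median 27.1) against 29.1 to 34.1 CPM (median 32.2), with chow at 57.7 to 70.4 CPM. Both were without overlap and furthest from chow with the knockout label. Errfi1, an inhibitor of the EGF receptor, rose, at 231 to 494 CPM (median 371) against 111 to 133 CPM (median 122) (1.61 ± 0.13 SE, edgeR adjusted p = 3.51e-08), as did Hsd11b1, which regenerates active hormone (1.24). Of 18 clock genes 7 rose and 4 fell (-0.02). Dbp, a clock-output factor, lay at 132 to 190.1 CPM (median 166) against 91.6 to 110.2 CPM (median 104), and Ciart, a clock repressor, at 10.8 to 18.2 CPM (median 15.2) against 5.07 to 7.53 CPM (median 5.78), with chow at 5.08 to 7.52 CPM. Per1 rose (0.45), Per2 and Cry1 fell (-0.40 and -0.48), and Arntl, the core activator, did not pass (0.06 ± 0.097 SE, edgeR adjusted p = 0.639). The hour at which kidneys were taken is not given in the sources used here.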

How the data were processed

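RNA of whole mouse kidney was sequenced, 1 library per sample. The authors deposited, per the file headers, a table per library with estimated counts (reads assigned to each transcript), TPM values (abundance relative to the library total, scaled to transcript length) and effective transcript lengths. FastQC, Salmon, DESeq2 and DESeq and the genome build GRCm39 are named in the submitters' processing notes, without versions or settings. Salmon divides reads between similar transcripts, so members of gene families can share reads.

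Of 116755 transcript identifiers 115685 (99.08%) were matched to genes in GENCODE M21 (GRCm38). The other 1070 held 0.453% to 0.527% of a library's reads and were left out. Estimated counts, as deposited by the authors, were summed over 35460 genes and rounded. Genes with few reads were removed with filterByExpr, leaving 16965, library sizes were scaled by TMM, and the 6 knockout, 6 wild-type and 4 chow libraries were fitted together in edgeR 4.0.16 (R 4.3.3) with the two-sided quasi-likelihood F test. P-values were adjusted by Benjamini-Hochberg over all genes tested, with a threshold of 0.05. The standard error was derived from the fold change and its F statistic. CPM values are counts divided by the TMM-scaled library size and multiplied by 1000000, read within a gene and not between genes. Single Enpp1 transcripts were compared by an exact permutation test over the 924 ways to assign the 12 libraries to groups of 6, on log2(CPM + 0.1). The edgeR script was tested on simulated data. Promoters and motifs were read from RefSeq windows on GRCm38.p6. No coordinate was moved between builds.

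Named were Enpp1, the 12 largest rises and falls among called protein-coding genes of at least 5 CPM, the first 2 genes of each of 55 lists and up to 3 further called members per direction. Results of some of these genes and of 1 motif are not reported here. The members and lists were chosen with earlier results of these data known, so no list was given a test. Alternatives were RLE and upper-quartile scaling, no low-count filter, DESeq2 1.42.0, limma voom 3.58.1, the 12 adenine libraries alone, an offset for transcript length, mitochondrially encoded genes left out, the replicate number as a block, each library left out, and, added after the data were seen, knockout replicates 3 and 5 both left out. The 8 libraries of the antibody experiment, a separate comparison, were not used here. Intervals and tests cover the spread between libraries; depth was similar, so it limits mainly genes of few reads.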

Additional observations from a re-analysis of the deposited data

Results flagged for a closer look

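In each gene named, the highest or lowest of the 6 libraries of a group was compared with the rest, and a library whose gap to its nearest neighbour exceeded Dixon's critical share of the group's range is listed here. Of 420 groups checked 26 (6.2%) held such a library; chance alone gives about 1 in 20.

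In wild-type replicate 5, Enpp1 lay at 24.9 CPM, with the other 5 libraries of the group at 20.9 to 22.3 CPM, Cd68 at 16.3 (others 18.7 to 19.3) and Jun at 93.3 (others 103 to 109). Kmo lay at 23.2 (others 14.6 to 17.4), Slc34a3 at 15.1 (others 6.15 to 9.18) and Upb1 at 38.7 (others 21.2 to 26.9). In wild-type replicate 1, Aqp4 lay at 2.44 CPM, with the other 5 libraries of the group at 0.0363 to 0.166 CPM, Ccl2 at 7.65 (others 10.9 to 11.9) and Il1b at 7.99 (others 5.01 to 5.82). Mdh2 lay at 79.7 (others 88.8 to 92.7), S100a8 at 9.87 (others 4.39 to 5.85) and Tgfb2 at 15.2 (others 12.8 to 13.3). In wild-type replicate 3, Hmox1 lay at 21.5 CPM, with the other 5 libraries of the group at 18.3 to 18.7 CPM, Nlrc5 at 30.5 (others 25.4 to 26.8) and Nphs1 at 19.0 (others 22.7 to 24.5). Pmaip1 lay at 48.0 (others 35.5 to 39.4) and Trpv5 at 57.7 (others 38.5 to 44.7). In knockout replicate 1, Jun lay at 91.3 CPM, with the other 5 libraries of the group at 103 to 106 CPM, Myc at 22.9 (others 26.8 to 28.0) and Tbk1 at 47.5 (others 39.9 to 42.6). Xdh lay at 81.9 (others 87.5 to 90.3). In knockout replicate 3, Aqp2 lay at 313 CPM, with the other 5 libraries of the group at 138 to 185 CPM. In wild-type replicate 6, Esr1 lay at 5.54 CPM, with the other 5 libraries of the group at 3.39 to 3.94 CPM. In knockout replicate 5, Hk2 lay at 19.6 CPM, with the other 5 libraries of the group at 12.3 to 14.7 CPM. In knockout replicate 2, Ido2 lay at 2.65 CPM, with the other 5 libraries of the group at 1.51 to 1.93 CPM. In wild-type replicate 4, Plvap lay at 42.3 CPM, with the other 5 libraries of the group at 27.8 to 33.0 CPM.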

How the results depend on the processing

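The total of 7873 genes called was 7185 to 7962 with 1 library left out (3958 to 4313 higher, 3227 to 3649 lower). It was lower, at 6841, with the transcript length offset (3797 higher, 3044 lower). Upper-quartile scaling shifted the median log2 change of all genes by -0.064 and gave 3486 higher and 5063 lower. Genes at least 2-fold lower numbered 60, 127 with no low-count filter, and 95 without knockout replicates 3 and 5; leaving out 1 library gave 49 to 83. Among 188 called genes named in the text, 178 kept their direction and their side of the threshold under all 22 alternatives and none of the 188 reversed. The labels do not say whether replicate numbers pair the libraries. Same-numbered knockout and wild-type libraries had deviations correlated at -0.144 to 0.065, and 1 of 6 knockout libraries correlated best with its own number. These values do not settle whether same-numbered libraries were handled together. With the replicate block 7523 genes passed, 4154 higher and 3369 lower; Umod then passed (0.29, edgeR adjusted p = 0.0154) and the Hspa1b and Pecam1 calls were lost (edgeR adjusted p = 0.052 and 0.11).

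Reversals touched genes that did not pass. Upper-quartile scaling gave log2 changes of -0.016 for Enpp1, -0.029 for Acta2, -0.0015 for Arntl and -0.049 for Havcr1. Leaving out knockout replicates 3 and 5 gave -0.048 for Acta2, -0.0068 for Arntl and -0.012 for Havcr1, and leaving out mitochondrially encoded genes gave 0.0094 for Cd74 and 0.0015 for Cdkn1a. With 1 library left out, Acta2 ranged over -0.027 to 0.077, Cd74 over -0.045 to 0.024, Cdkn1a over -0.079 to 0.047, Havcr1 over -0.060 to 0.144, Il1b over -0.251 to 0.045, Jun over -0.048 to 0.0088 and mt-Co1 over -0.141 to 0.0063. Enpp1-202 changed by 0.026 in deposited TPM and by 0.0997 to 0.142 with 1 library left out. The cause was not tested. List counts other than those of macrophage, cell-cycle and B and plasma cell genes that moved by over 1.5 times when 1 library was left out moved by 1 gene. Upper-quartile scaling moved more list counts. Lower calls went from 4 to 7 of clock genes, 2 to 5 of nephron transcription factors and 5 to 9 of cell-cycle genes. They went from 2 to 5 of macrophage genes and 2 to 4 of keratin and urothelial genes. Mesangium, pericyte and renin cell genes went from 2 to 4 and iron genes from 1 to 3. Without knockout replicates 3 and 5 the lower calls were 0 of cytochrome P450, 3 of cell-cycle, 2 of stress, 4 of macrophage, 1 of endothelial, 0 of podocyte and 2 of iron genes. Of B and plasma cell genes 5 were lower without wild-type replicate 2.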
